A study of Mus musculus with 38 samples.

Results

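Broad H3K4me3 peaks are stretches of trimethylated histone H3 lysine 4 much wider than the usual promoter peak. In the male mouse liver list, a peak was taken when its end minus its start was 4000 bp or more, when it shared at least 1 bp with a male H3K27ac peak, and when it shared none with a male H3K27me3 island. This gave 981 of 16018 male H3K4me3 peaks. Of 1025 male peaks of that width, 1006 overlapped H3K27ac, and 25 of these were removed because they also met H3K27me3. The 981 peaks are called broad active peaks below, and 11947 male peaks under 4 kb that passed the same 2 conditions on H3K27ac and H3K27me3 are called narrower active peaks. The members were chosen by their measured width, H3K27ac and H3K27me3 in males, so values of these 3 are a description.

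Chromatin immunoprecipitation and sequencing (ChIP-seq) was done for 6 histone marks on liver of CD-1 mice of both sexes at 8 weeks of age. CD-1 is an outbred stock. H3K4me3 was represented by 4 male and 3 female libraries, and every library of a mark and sex carried the same deposited peak list. Each mark and sex was therefore 1 pooled list, with no spread between animals and no test between animals. Beside each share stands its 95% interval (exact, Clopper-Pearson), for counting error alone. Tags inside peaks came to 5087982 in the male and 5084261 in the female H3K4me3 list. The full library depth is unknown here. The lists cover the 19 autosomes, and peak coordinates are mm9.

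Trimethylation of H3K4 is laid down at the starts of transcribed genes by SET1 and MLL family methyltransferases. Most active promoters carry it as a short peak around the start site, while at some genes it runs on into the transcribed region. Wide domains of this kind have been described at genes tied to the identity of a cell type. H3K27ac marks active promoters and enhancers, H3K4me1 usually lies at enhancers and on the shoulders of promoters, H3K36me3 follows elongating RNA polymerase over gene bodies, and H3K27me3 and H3K9me3 mark silent chromatin.

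Genes were given to peaks by sequence. Reads of a male IgG control library, each with its mm9 position, were matched over their whole 35 bases to RefSeq promoter windows (GRCm38.p6), which placed the start sites of 12620 genes on the mm9 autosomes (49.0% of those in the table). Nothing can be read from a gene that was not placed. A start site was placed in 521 of 981 broad active peaks (53.1%, 95% interval 49.9 to 56.3), holding 614 genes, and in 4087 of 11947 narrower active peaks (34.2%, 33.4 to 35.1), holding 4533 genes. IgG reads were also denser in the broad peaks, with a median of 5.53 against 4.53 reads per kb in the narrower ones, and the part of density and width in these shares was not tested.

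The promoters shown here belong to members that the results below turn on. Bcl6, a transcriptional repressor, Foxa1, a pioneer transcription factor of liver, Sdc4, a cell surface proteoglycan, and Gc, the vitamin D binding protein of plasma, are among the widest members. Alb (albumin) and Cyp2d9, a steroid hydroxylase, were called male-biased in the authors' deposited table, and C3, the central complement protein, was the one member with a placed gene that it called female-biased. Each line gives the 250 bases before the start site, 5′ to 3′ on the gene's strand, from RefSeq, with CG dinucleotides in capitals.
Bcl6: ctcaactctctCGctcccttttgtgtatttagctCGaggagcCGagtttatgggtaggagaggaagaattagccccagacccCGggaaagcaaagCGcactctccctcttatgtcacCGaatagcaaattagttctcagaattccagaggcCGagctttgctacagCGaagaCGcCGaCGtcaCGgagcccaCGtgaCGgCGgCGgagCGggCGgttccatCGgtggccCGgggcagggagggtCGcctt
Foxa1: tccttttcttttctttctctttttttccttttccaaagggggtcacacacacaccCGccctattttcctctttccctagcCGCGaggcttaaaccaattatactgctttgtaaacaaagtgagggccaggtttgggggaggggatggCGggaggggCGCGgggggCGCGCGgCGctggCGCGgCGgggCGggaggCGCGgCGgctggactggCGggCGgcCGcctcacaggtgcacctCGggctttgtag
Sdc4: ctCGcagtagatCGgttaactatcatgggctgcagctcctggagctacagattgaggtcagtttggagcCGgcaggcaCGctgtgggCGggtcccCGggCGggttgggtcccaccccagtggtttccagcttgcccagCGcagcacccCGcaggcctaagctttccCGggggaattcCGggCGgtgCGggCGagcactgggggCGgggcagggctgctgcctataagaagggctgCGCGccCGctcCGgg
Gc: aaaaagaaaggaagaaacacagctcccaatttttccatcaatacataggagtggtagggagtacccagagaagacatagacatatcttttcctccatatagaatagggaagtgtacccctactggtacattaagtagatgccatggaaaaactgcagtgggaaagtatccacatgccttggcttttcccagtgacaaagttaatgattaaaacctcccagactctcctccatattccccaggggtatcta
Alb: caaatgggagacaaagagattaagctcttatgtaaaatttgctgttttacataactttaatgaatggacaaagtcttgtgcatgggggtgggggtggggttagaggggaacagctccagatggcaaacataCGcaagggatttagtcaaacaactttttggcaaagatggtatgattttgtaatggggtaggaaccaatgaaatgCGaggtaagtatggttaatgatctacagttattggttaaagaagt
Cyp2d9: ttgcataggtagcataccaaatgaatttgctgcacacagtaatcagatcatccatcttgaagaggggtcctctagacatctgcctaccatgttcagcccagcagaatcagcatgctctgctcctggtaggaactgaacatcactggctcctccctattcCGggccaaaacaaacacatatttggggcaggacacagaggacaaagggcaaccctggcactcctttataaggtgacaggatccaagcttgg
C3: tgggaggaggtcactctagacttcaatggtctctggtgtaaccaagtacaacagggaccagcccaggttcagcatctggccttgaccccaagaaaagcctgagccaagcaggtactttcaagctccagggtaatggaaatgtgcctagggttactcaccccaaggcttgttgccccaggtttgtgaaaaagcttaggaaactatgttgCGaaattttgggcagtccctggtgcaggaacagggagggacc

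In GRCm38.p6 these stretches lie at chr16:23988853-23989102 (minus strand) for Bcl6, chr12:57546112-57546361 (minus) for Foxa1, chr2:164443189-164443438 (minus) for Sdc4 and chr5:89457899-89458148 (minus) for Gc. The others lie at chr5:90460620-90460869 (plus) for Alb, chr15:82452127-82452376 (plus) for Cyp2d9 and chr17:57228137-57228386 (minus) for C3. The count of CG was 21 in Bcl6, 21 in Foxa1 and 19 in Sdc4, against 0 in Gc, 2 in Alb, 1 in Cyp2d9 and 1 in C3. Broad peaks thus stood over promoters rich in CG and over promoters almost without it. The same was seen over all 614 genes in broad peaks, where the ratio of observed to expected CG in the 300-base promoter window had a median of 0.68 and a lower quartile of 0.37. Over the 4533 genes in narrower peaks the median was 0.79 and the lower quartile 0.61. A ratio of 0.6 or more was found at 360 of 614 genes in broad peaks (58.6%, 54.6 to 62.6) and at 3465 of 4533 genes in narrower peaks (76.4%, 75.2 to 77.7), against 35.8% of all 32851 promoter windows in the table. The letters TATAAA, read on the gene's strand in the 40 bases before the start, occurred at 17 of 614 genes in broad peaks (2.77%, 1.62 to 4.40) and at 41 of 4533 in narrower peaks (0.90%, 0.65 to 1.23). All windows held them in 2.31% of cases, and none of the 7 promoters printed here did.

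The broad active peaks were 6.12% of male H3K4me3 peaks, but they covered 5.25 Mb, or 16.1% of the bases in the list, and held 21.2% of its tags. Their width had a median of 4893 bp (quartiles 4373 and 5805, highest 16085), and the narrower active peaks had a median of 1887 bp. Tags per peak had a median of 986 (range 281 to 8306) in broad and 278 in narrower active peaks. The tags were also denser, with medians of 196.0 tags per kb in broad and 142.9 tags per kb in narrower peaks, and the authors' fold enrichment at the summit had medians of 21.99 and 16.4. The rule set the length, and the tags come from the same male list, so these differences are a description. Density and width were only weakly related among the broad peaks (Pearson 0.21, Spearman 0.19 across 981 peaks of 1 list). The summit lay off centre in most, at a median of 32.4% of the width from the nearer edge in broad and 39.4% in narrower peaks.

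**Figure D1:**
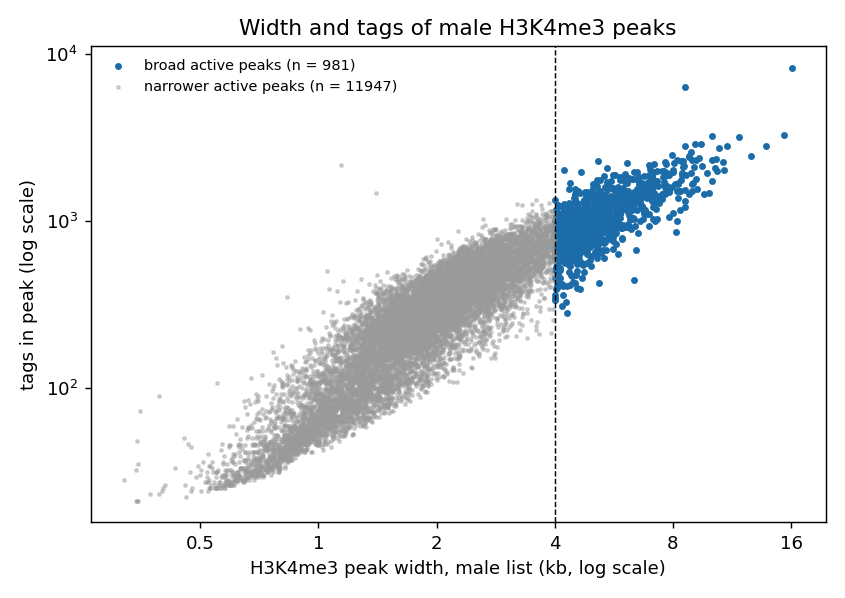
Width (kb) and tags of male H3K4me3 peaks on log scales, 1 point per peak, for 981 broad active peaks (blue) and 11947 narrower active peaks (grey), with the 4 kb threshold dashed. Tags go up with width on both sides of the threshold with no break, and 2 broad peaks lie well above the rest, with 8306 and 6393 tags.

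The widest member, at chr7:38967593-38983678, held the starts of 1600014C10Rik and D530033B14Rik. It was 16085 bp wide with 8306 tags in males, and its female partner was 4570 bp wide. IgG reads there reached 22.3 per kb, against an autosomal mean of 4.38, and their part in the peak was not tested. The next in width was Bcl6 at chr16:23979048-23994343, with 15295 bp and 3287 tags in males and 2 female pieces, the wider of 12529 bp and together 15254 bp. Widths of pieces together run from the first start to the last end, gaps included. Sdc4 (chr2:164257222-164271011) followed with 13789 bp in males and 12934 bp in females.

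Gm11266, a predicted gene of unstated role, lay in a 12641 bp peak on chromosome 4 that the female list gave as 3 pieces, the widest of 4673 bp and together 12006 bp. Gc (chr5:89878111-89889912) had 11801 bp in males and 8063 bp in females. Foxa1 (chr12:58637697-58648499) had 10802 bp in males and 9738 bp in females. Oaf on chromosome 9 went the other way, with 10309 bp in males and 11009 bp in females. The remaining 5 of the 12 widest had no placed gene. Of these, chr6:90410823-90421821 had 10998 bp in males and 11994 bp in females, and chr19:5840701-5850938 had 10237 bp in males and 9903 bp in females.

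Ranked by tags, the 8 leading members added Cwc22, Cat, Mgst1 and 1 peak with no placed gene to 4 of those already named. Cwc22, which encodes a spliceosome-associated protein, had 6393 tags over 8597 bp, or 743.5 tags per kb, the highest density of any member. It was also covered over 99.1% of its length by male H3K9me3 and over 100% by male H3K36me3, a pair of marks found together over most of a member in 1 other case. In females an H3K27me3 island, the mark of Polycomb silencing, covered 99.1% of it, while the female H3K4me3 list gave it 2 pieces of 8532 bp together with 3170 tags. In the authors' deposited table its log2 ratio of male over female was 2.48 for H3K27ac and 3.44 for H3K36me3, both called male, and 0.99 for H3K4me3, just short of a call. IgG reads over Cwc22 came to 5.12 per kb in the 1 male library used, against an autosomal mean of 4.38. The part of copy number in the values of Cwc22 was not tested. Cat, which encodes catalase, had 3226 tags over 10076 bp in males and a female partner of 9467 bp. Mgst1, a microsomal glutathione transferase, had 2905 tags over 9442 bp in males and a female partner of 8723 bp.

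At the threshold, the members just inside were Gckr, the glucokinase regulator, at 4002 bp with 457 tags, Capn10, a calpain protease, at 4002 bp with 601 tags, and the shared peak of Abhd13 and the DNA ligase gene Lig4 at 4003 bp with 676 tags. The peaks just outside were chr12:81743465-81747458 at 3993 bp with 903 tags, chr16:8735853-8739844 at 3991 bp with 437 tags, and chr4:128670351-128674342 at 3991 bp with 1100 tags. None of the 3 outside had a placed gene. The tags of the 2 sets overlapped, so 4 kb is a line drawn through a continuous range.

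Many defining genes of the hepatocyte had their start in a broad peak. Over all placed genes, 614 of 12620 did (4.87%), or 11.97% of the 5130 in an active peak, and no test was made of any list. Of 17 genes that mark hepatocytes by their secreted or metabolic products, 10 were placed, all 10 lay in an active male peak, and 8 of those were broad. The 3 fibrinogen chain genes formed a run of separate broad peaks over 44.7 kb of chromosome 3 (82810325 to 82855012). Fgg had 8176 bp in males and 6514 bp in females, Fga had 7135 bp in males and 5494 bp in the wider of 2 female pieces (6328 bp together), and Fgb had 6538 bp in males and 4679 bp in females. Apoa1, the main apolipoprotein of HDL, had 8060 bp in males and 5077 bp in the wider of 2 female pieces (8256 bp together), and Apob, that of LDL, had 5638 bp in males and 5684 bp in females. Alb had 6760 bp in males and 3633 bp in females, Tat, a tyrosine-degrading enzyme, had 6486 bp in males and 5138 bp in females, and Ahsg (fetuin-A) had 4493 bp in males and 8378 bp in females. The 2 placed genes below the threshold came close to it, Apoh at 3782 bp and Apoa2 at 3410 bp in males.

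Of 28 liver transcription factors, 15 were placed, all 15 in an active male peak, and 11 in a broad one. Besides Foxa1, these were Hhex at 8217 bp, Onecut1 at 8079 bp, Foxa2 at 7257 bp, Cebpa at 6534 bp, Hnf4a at 5873 bp and Foxa3 at 4411 bp in males, all factors that build or maintain the hepatocyte programme. The nuclear receptors Nr1h4 (bile acid receptor), Rxra (the shared heterodimer partner) and Nr1i2 (xenobiotic receptor) had 5872, 5191 and 4562 bp in males, and Xbp1, of the unfolded protein response, had 5497 bp. Female partners were also at least 4 kb wide at 10 of these 11 genes, Hhex being the exception with 3 female pieces, the widest of 3837 bp and together 8060 bp. Onecut1 had 8079 bp in males and 8122 bp in females, and Hnf4a 5873 bp in males and 5835 bp in females. The factors with placed starts in narrower peaks were Creb3l3 (3425 bp), Nr1i3 (3343 bp), Nr5a2 (3012 bp) and Nr1h3 (2340 bp).

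Among 12 growth hormone targets and sex-biased factors, 7 were placed and 4 lay in broad peaks. Besides Bcl6, these were Igf1, the growth factor released by liver under growth hormone, with 7005 bp in males and 7817 bp in females, Stat5b, which carries the growth hormone signal to the nucleus, with 4544 bp in males and 5179 bp in females, and Igfals, which holds IGF in plasma, with 4013 bp in males and 5797 bp in females. Stat5a, the close relative of Stat5b, had a narrower peak of 2039 bp in males and 2276 bp in females. Of 11 placed early-response and stress genes, 3 were broad, namely Dusp6 (7107 bp in males), Junb (5700 bp) and Dusp1 (4169 bp). Of 5 placed clock genes, Dbp alone was broad, with 5341 bp in males and 2044 bp in the wider of 2 female pieces (3072 bp together).

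Markers of the other cells of liver were looked up in the same way. Of 2 placed Kupffer cell, 3 endothelial, 2 stellate, 3 cholangiocyte and 2 lymphocyte markers, 0 lay in any active male H3K4me3 peak. Clec4f and Cd5l (Kupffer cell), Tek and Gata2 (endothelium), Spp1 and Cftr (cholangiocyte), and Ptprc and Cd79a (lymphocyte) were in no male H3K4me3 peak at all. The other placed markers did lie in male H3K4me3 peaks, though not in active ones. These were Stab2 (endothelium, 789 bp), Lrat and Hgf (stellate cell, 1239 and 2668 bp) and Epcam (cholangiocyte, 991 bp). Most markers of these lists were not placed. In whole liver, fewer cells of a type and less signal per cell cannot be told apart.

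Start sites sat towards one end of the broad peaks. In 432 broad and 3607 narrower active peaks the placed starts all ran on 1 strand, and the most upstream one was taken as the start. Where a peak held several starts, this choice lengthened the downstream part. The part downstream of the start had a median of 3715.5 bp in broad and 1292 bp in narrower peaks. The part upstream had medians of 1214.5 bp and 762 bp. The downstream part was the longer in 355 of 432 broad peaks (82.2%, 78.2 to 85.7) and in 2974 of 3607 narrower peaks (82.5%, 81.2 to 83.7). The narrower share lay within the broad interval, and the lengths, as parts of the width that chose the members, are a description. Placed starts on both strands were found in 89 of 521 broad peaks (17.1%, 13.9 to 20.6) and 480 of 4087 narrower peaks (11.7%, 10.8 to 12.8).

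**Figure D2:**
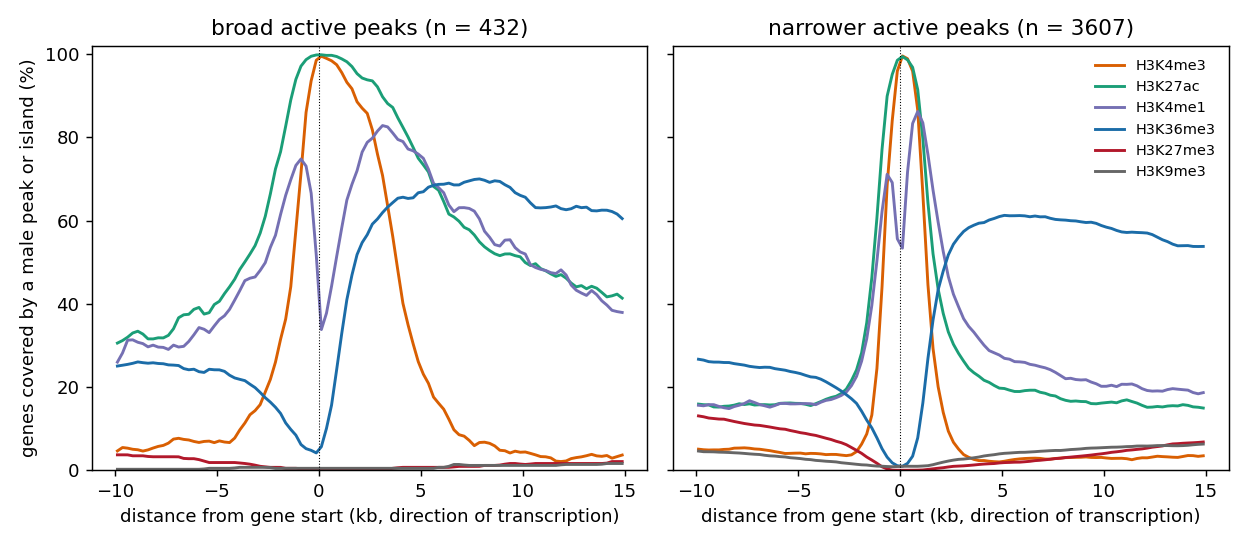
Share of genes (%) whose position is covered by a male peak or island of each mark, by distance from the start site (kb, positive in the direction of transcription), for 432 broad active peaks (left) and 3607 narrower active peaks (right). The start is the most upstream one placed in the peak. In the broad set H3K4me3 still covered 70.9% of genes near 3 kb downstream, against 3.76% in the narrower set, and H3K4me1 dipped to 33.8% at the start, against 53.4%.

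H3K4me1 lay both within and beside the broad peaks and was thinner at their start sites. A male H3K4me1 peak overlapped 970 of 981 broad peaks (98.9%, 98.0 to 99.4) and 11511 of 11947 narrower ones (96.4%, 96.0 to 96.7). Within 1 kb of the summit, where both kinds of peak were searched over the same length, the order turned, with 90.7% of broad (88.7 to 92.5) and 96.7% of narrower peaks (96.3 to 97.0). Cover of 90% or more by H3K4me1 was found in 185 broad peaks (18.9%) and 5674 narrower peaks (47.5%), while 2 or more separate H3K4me1 peaks met 807 broad peaks (82.3%, 79.7 to 84.6) and 4858 narrower ones (40.7%, 39.8 to 41.6). A wider peak has more room for several H3K4me1 peaks and for gaps between them. Width chose the members, and its part in these shares was not tested. In the plot of marks by distance from the start, H3K4me1 covered 33.8% of genes in broad peaks just downstream of the start and 82.9% near 3 kb. There H3K4me3 covered 70.9% of genes, and cover by both marks at the same gene was not counted. H3K4me1 covered a mean of 71.8% of the bases inside broad peaks and 80.7% inside narrower ones. In the 2 kb flanks on either side, the mean was 67.4% beside broad peaks and 42.5% beside narrower ones.

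H3K27ac ran past the broad peaks on both sides. The rule asked for 1 bp of overlap, and 971 of 981 broad peaks were covered over at least 90% of their length (99.0%, 98.1 to 99.5). A single H3K27ac peak enclosed 895 of them (91.2%, 89.3 to 92.9), against 9611 of 11947 narrower peaks (80.4%, 79.7 to 81.2). The H3K27ac peak over a broad peak had a median width of 10147 bp, and that over a narrower peak 3115 bp. It was the wider of the pair at 955 of 981 broad peaks.

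H3K36me3 overlapped most broad peaks and lay more often downstream than upstream of those with a placed start. A male island overlapped 700 of 981 broad peaks (71.4%, 68.4 to 74.2) and 3115 of 11947 narrower ones (26.1%, 25.3 to 26.9). A wide peak meets an island more easily, and the part of width in these shares was not tested. Within 1 kb of the summit, a window chosen after seeing the data, an island was found at 404 broad peaks (41.2%, 38.1 to 44.3) and 2761 narrower peaks (23.1%, 22.4 to 23.9). The summits were not matched for their position in the gene. At least 50% of the peak was covered in 325 broad (33.1%) and 541 narrower peaks (4.53%). The island lay on 1 side in 637 broad peaks, on both in 160 and on neither in 184, within 2 kb of the edges. With the start's strand known, it lay in the downstream flank of 319 of 432 broad peaks (73.8%, 69.4 to 77.9) and in the upstream flank of 103 (23.8%, 19.9 to 28.1). Among narrower peaks these shares were 59.7% (58.1 to 61.4) downstream and 19.9% (18.6 to 21.2) upstream. The flanks began at the peak edges, which lay further from the start in broad peaks, and the part of width was not tested. At fixed distances downstream of the start, H3K36me3 covered 32.9% of genes in broad and 16.1% in narrower peaks near 1 kb. Near 3 kb it covered 61.9% and 57.4%.

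The distance from the most upstream placed start to the first H3K36me3 base within 20 kb had a median of 1565.5 bp for broad and 1830.5 bp for narrower peaks. The quartiles of that distance overlapped, at 829 and 4032 bp for broad and 1246 and 4276.5 bp for narrower peaks. That first base lay inside the H3K4me3 peak at 299 of the 398 broad peaks where it was found and at 1000 of 3070 narrower ones. How often a point at such a distance falls inside a peak is set by the width that chose the members, so these 2 counts are a description and nothing is read from their difference. Overlap in tissue does not show both marks on the same nucleosomes or in the same cells. The female list gave like values, with H3K36me3 on 673 of 981 broad peaks (68.6%, 65.6 to 71.5) and 3495 of 11947 narrower peaks (29.3%, 28.4 to 30.1).

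**Figure D3:**
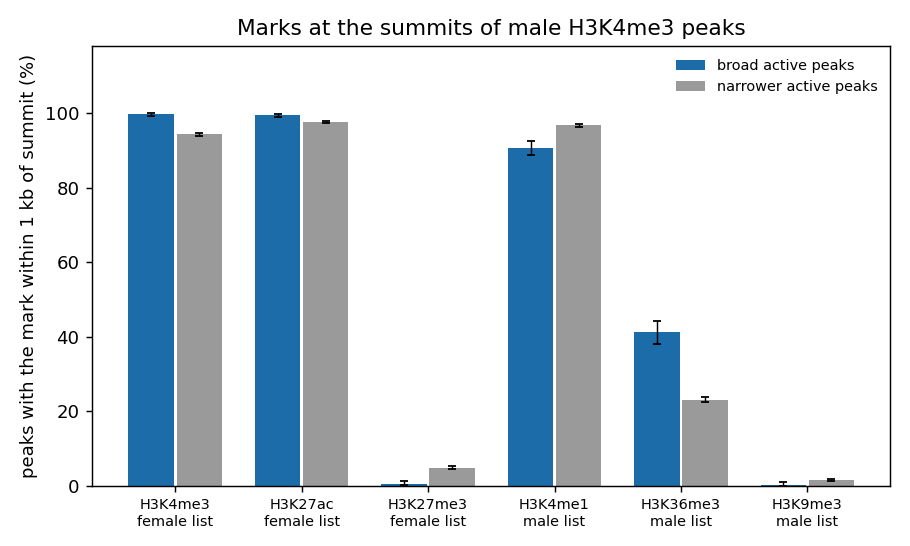
Share of male H3K4me3 peaks (%) with a peak or island of each mark within 1 kb of the summit, for broad active (blue, left bar) and narrower active peaks (grey, right bar), with exact 95% intervals for counting error. H3K36me3 reached 41.2% of broad and 23.1% of narrower peaks, and H3K4me1 90.7% and 96.7%.

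Silent-chromatin marks were rare at broad peaks. Male H3K9me3 met 3 of 981 (0.31%, 0.063 to 0.89) and 167 of 11947 narrower peaks (1.40%, 1.20 to 1.62). The 3 were Cwc22, Tmem267, which was covered over 100%, and chr10:80637798-80641954, covered over 47.0%. Female H3K27me3 islands, which the rule did not use, met 11 broad peaks (1.12%, 0.56 to 1.997) and 519 narrower ones (4.34%, 3.99 to 4.73). In females, H3K27ac without H3K27me3 was found at 966 of 981 broad peaks (98.5%, 97.5 to 99.1) and 11189 of 11947 narrower peaks (93.7%, 93.2 to 94.1). Female H3K27ac was missing from the list used here at 5 broad peaks. At 4 of them the log2 ratio of male over female H3K27ac in the authors' deposited table was between -0.18 and 0.08. The other, chr19:46205499-46211874, had a ratio of 1.45 there in the authors' deposited table and lay wholly inside a female H3K27me3 island, and Cwc22 was the other member nearly enclosed by one.

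Nearly every broad peak had an H3K4me3 partner in females. Of 981, 979 overlapped a female peak (99.8%, 99.27 to 99.98), against 11200 of 11947 narrower peaks (93.7%, 93.3 to 94.2). The lowest tag count was 281 in broad and 21 in narrower peaks, and the part of signal and length in these shares was not tested. The partner was itself 4 kb or wider at 640 of 981 (65.2%, 62.2 to 68.2) and at 160 narrower peaks (1.34%, 1.14 to 1.56). The share was higher in each wider class of male peak, at 46.0% of 315 peaks between 4 and 4.5 kb, 63.6% of 217 up to 5 kb, 71.2% of 236 up to 6 kb, 86.8% of 152 up to 8 kb and 93.4% of 61 wider ones. The same 4 kb line was set on both lists and male width chose the members, so these shares are a description. One female peak lay over 747 broad peaks, 2 over 205 and 3 over 27. Taking the joined width of those pieces, with the gaps between them included, 754 of 981 reached 4 kb in females (76.9%, 74.1 to 79.5).

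The widest partner had a median width of 4460 bp in females (range 1203 to 12934), and was the wider of the pair at 285 of 981 (29.1%, 26.2 to 32.0). Male width chose the members, so this comparison of widths is a description. The same rule on the female lists took 746 peaks with a median of 4895.5 bp, of which 633 had a male partner of 4 kb or more (84.9%, 82.1 to 87.4). The 2 sets met in 631 of 981 male peaks (64.3%) and 630 of 746 female peaks (84.5%). Male and female widths were correlated across 979 peaks (Pearson 0.60, Spearman 0.53), a description over peaks of the same pooled libraries.

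**Figure D4:**
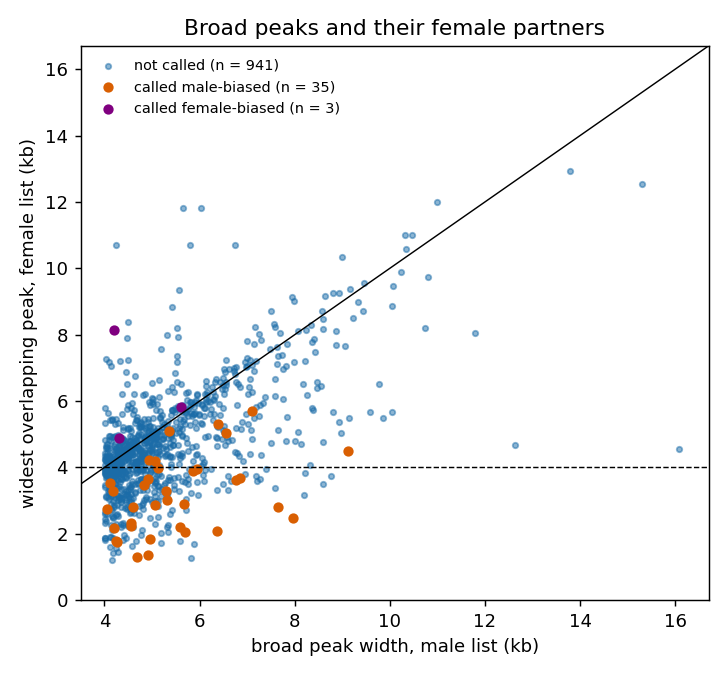
Width of each broad peak in the male list (x axis, kb) and of its widest overlapping female peak (y axis, kb), with equality drawn as a solid line and 4 kb in females dashed. Peaks called male-biased in the authors' deposited table (orange, 35 with a partner) lie below equality, 28 of them under 4 kb in females, while the 3 called female-biased (purple) lie above it.

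Some members differed widely in width between the lists, and the ones named here were chosen after their values were seen. The widest female partner was under 40% of the male width at 24 members and over 160% at 14. Male peaks under the same female peak were not joined, so a wider female peak can take in more than 1 male peak. Most of the 24 were peaks that the female list gave in pieces, since 19 of them had 2 or 3 female peaks, and by joined width 9 of the 24 reached 80% of the male width. By joined width 5 of all members stayed under 40%, namely Cyp2d9, Hsd3b2, the widest member of all, chr4:107783857-107791817 (7960 bp in males and 2486 bp in females) and the shared peak of Gm12909 and the major urinary protein gene Mup3 (7651 bp in males and 2795 bp in females). At Irs1, an adaptor of the insulin receptor, a female peak of 10712 bp took in both the 4251 bp male peak at the start site and a neighbouring member of 5807 bp. Apoe, an apolipoprotein of lipoprotein remnants, likewise shared a female peak of 11813 bp with its neighbour, the male peaks being 6037 and 5658 bp wide. These were the 2 female peaks that overlapped more than 1 member. Irs2 had 4098 bp in males and 7181 bp in the wider of 2 female pieces (7999 bp together). In the other direction Gstp1, a glutathione transferase, had 4234 bp and 946 tags in males, against 2 female pieces of 2915 bp and 586 tags together, the wider of 1584 bp.

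Few broad peaks were called sex-biased. In the authors' deposited table, where a call needs an absolute log2 ratio of at least 1 and a p below 0.001, 37 of 981 were called male (3.77%, 2.67 to 5.16), against 4.46% of the whole male H3K4me3 list. The authors' deposited table called 3 of 981 female (0.31%, 0.063 to 0.89), against 0.499% of the list. Both shares are near the background, as were those of narrower active peaks in the authors' deposited table, with 472 male (3.95%) and 51 female (0.43%). The median log2 ratio in the authors' deposited table was 0.05 in broad and 0.04 in narrower peaks. These p-values compare pooled libraries, and the ratio uses the male signal that also set the width.

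The male-called member with the highest ratio, chr3:138039471-138044047, had no placed gene, 723 male tags over 4576 bp and no female peak, and its log2 was 3.36 in the authors' deposited table. Cyp2d9 (chr15:82281835-82286788) had 4953 bp and 1065 tags in males against 1832 bp and 123 tags in females, with 2.56 in the authors' deposited table. Hsd3b2, a hydroxysteroid dehydrogenase (chr3:98523703-98529399), had 5696 bp and 995 tags in males against 2043 bp and 147 tags in females, with 2.16 in the authors' deposited table. Both genes act on steroids.

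Gm31583, a predicted gene on the same chromosome as Bcl6 (chr16:24085349-24091032), had 5683 bp and 1383 tags in males against 2901 bp and 283 tags in females, with 1.96 in the authors' deposited table. Slco1a1, an organic anion transporter (chr6:141890501-141896364), had 5863 bp and 1768 tags in males against 3895 bp and 461 tags in females, with 1.83 in the authors' deposited table. Alb had 1117 tags in its 6760 bp in males against 341 tags in females, with 1.46 in the authors' deposited table. The male H3K27ac peak over it, 35557 bp wide, went the other way at -0.28 in the authors' deposited table. Named after their values were seen, the 3 members over Ugt2b genes (Ugt2b36, Ugt2b35 and Ugt2b1, which conjugate steroids and drugs) had 1.48, 1.39 and 1.28 in the authors' deposited table, and the complement genes C8a and C9 had 1.25 and 1.23.

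C3 (chr17:57364090-57368282) had 4192 bp and 740 tags in males against 8134 bp and 1930 tags in females, with -1.18 in the authors' deposited table. The other 2 called female, chr1:182155384-182160996 and chr10:121884676-121888983, had -1.14 and -1.04 in the authors' deposited table. Their widths were 5612 bp in males against 5830 bp in females, and 4307 bp in males against 4873 bp in females.

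Most male-called members had a narrower female partner, and most were called in H3K4me3 alone. Of the 37, the widest female partner was under 4 kb at 28 and absent at 2, and by joined width 27 were under 4 kb. The medians were 5070 bp in males and 3015 bp in females (3294 bp joined), and where no call was made 4880 bp in males and 4499 bp in females (4803 bp joined). The call uses the same H3K4me3 signal as these widths, so the difference in width is a description. Per the authors' deposited table, 5 of the 37 also held a male-called H3K27ac peak (13.5%, 4.54 to 28.8), against 1 of 941 members with no H3K4me3 call (0.11%, 0.0027 to 0.59) and 1.74% of that list. That 1 was Cwc22. For H3K36me3 the authors' deposited table called 2 of 33 male (6.06%, 0.74 to 20.2), against 2 of 664 members with no H3K4me3 call (0.30%, 0.036 to 1.08) and 0.556% of its list. For H3K4me1 the authors' deposited table called 2 of 37 male (5.41%, 0.66 to 18.2), against 2 of 930 (0.22%, 0.026 to 0.77) and 8.21% of its list. Calls in H3K4me3 alone numbered 29 in the authors' deposited table. The call and ratio of another mark are those of its whole peak or island that shares most bases with the member. That H3K27ac peak was wider than the member at 955 of 981, so the marks were not compared over equal stretches. At most of the 37 the ratios of the other marks were above 0 without reaching the threshold. In the authors' deposited table the H3K27ac log2 ratio had a median of 0.36 and was above 0 at 34 of 37, against 0.05 and 584 of 941 where H3K4me3 was not called. For H3K4me1 the authors' deposited table gave 0.56 and 29 of 37, against 0.02 and 480 of 930. For H3K36me3 the authors' deposited table gave 0.28 and 31 of 33, against 0.12 and 531 of 664. Over all members, log2 ratios from the authors' deposited table gave Pearson and Spearman values of 0.45 and 0.33 between H3K4me3 and H3K27ac (981 peaks), and 0.43 and 0.43 between H3K4me3 and H3K4me1 (970). They were 0.19 and 0.03 for H3K36me3 (700), again in the authors' deposited table, all as descriptions over peaks of the same pooled lists.

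**Figure D5:**
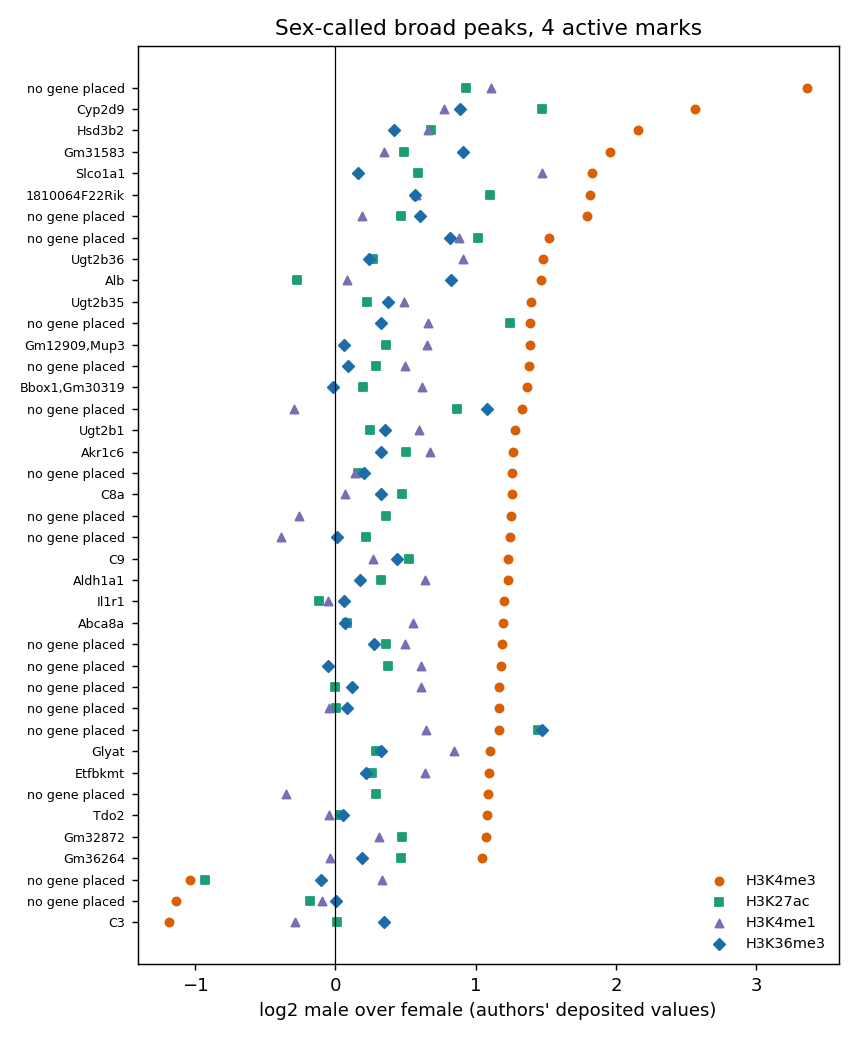
Log2 ratio of male over female signal in the authors' deposited table for the 40 sex-called broad peaks (rows, by placed gene), for H3K4me3 and for the overlapping male H3K27ac, H3K4me1 and H3K36me3 peaks. H3K4me3 lies between 1.04 and 3.36 in the 37 called male, while most points of the other marks lie between 0 and 1.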

How the data were processed

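The authors deposited 1 peak list per mark and sex, repeated in every library's file, so libraries were not separable and no test between animals was made. Bowtie, SICER 1.1 and mm9 are named in the submitters' processing notes. SICER islands were used for H3K36me3, H3K27me3 and H3K9me3, per the labels. The other lists carry MACS-type columns, and no label or header gives the caller version. Per the file headers, the deposited lists hold tag or read counts (raw), a fold ratio over control, a score, a p-value and, for MACS-type peaks, a false discovery rate in percent. The log2 male over female ratio, its p-value and the sex call are in the authors' deposited table, whose normalisation no label or header describes. H3K27ac tags were partly deposited with 3 significant digits and were not used as values.

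Overlap means at least 1 bp. A peak's female partner is the widest female H3K4me3 peak that overlaps it. Joined width runs from the first start to the last end of all that do, with any gaps between them included. IgG reads (11201113, 35 bases, 1 male library of an earlier record) were matched exactly on either strand to promoter windows from 250 bases before to 50 after each start. Of 27930 reads matching 1 window, 27918 lay on the window's chromosome, and 5103 of 5110 windows with 2 or more read positions gave a single start. No coordinate was converted between builds. The matching and the intervals were tested on simulated data. Widths were used as deposited, so a caller that splits or joins neighbouring regions differently would change them.

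The named regions were the 12 widest members, the 8 with most tags, up to 5 called in each direction with the highest absolute log2, and 3 on each side of 4 kb, with list genes in broad peaks. Members and lists were chosen with earlier results of these data known. Alternatives changed the width, cover, false discovery rate, centring and read-position minimum. Python 3.11.15, pandas 2.3.3, numpy 2.4.6, scipy 1.17.1 and matplotlib 3.10.9 were used.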

Additional observations from a re-analysis of the deposited data

How the results depend on the processing

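No paired analysis was possible because every library of a mark and sex carried the same deposited list, and for the same reason leaving out a library gave no value. The number of broad active peaks was 1441 from 3500 bp, 451 from 5000 bp and 13 with a false discovery rate of at most 1%. The best peaks of the list share a rate of 3.82%, so that last limit removes most of the strongest members. It was 981 with at least 50% cover by H3K27ac, and 983 where H3K27me3 removed a peak only from 10% cover. The share with a female peak was 98.5% where female peaks had to cover at least 50%. The share with a female partner of 4 kb or more was 76.9% with joined widths and 79.6% for male peaks of 5000 bp or more. With at least 50% of the peak covered, the share was 87.2% for H3K4me1 and 33.1% for H3K36me3. Within 1 kb of the summit, an alternative chosen after seeing the data, it was 90.7% for H3K4me1 and 41.2% for H3K36me3. A named promoter was found in 270 members when at least 2 read positions had to match. Of the 19 alternatives, the remaining 9, the counts of 1441, 981 and 983 among them, stayed within the interval or within 1.5 times of the value reported. Among them, centring the ratios in the authors' deposited table left 37 members called male and gave 4 called female, and the median density was 194.8 tags per kb without the 43 members densest in IgG reads. What depth limits cannot be read from these lists, which hold no reads outside peaks.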
